A study of Mus musculus with 7 samples.

Results

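The 32 genes described here encode enzymes of cholesterol synthesis, the regulators that sense sterols, and proteins of cholesterol uptake, storage and efflux. Members were chosen by name, as rows of a raw count table of mouse CD4+ T cells whose Ensembl identifier carries the member's symbol. All 32 were found among 39017 genes in the table, and all 32 were among the 15968 genes with enough reads to be tested. They comprised 18 synthesis enzymes, 5 regulators of the sterol regulatory element-binding protein (SREBP) pathway, 5 genes of the liver X receptor (LXR) and efflux group, and 4 genes of lysosomal release, storage and transport.

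The study asked how loss of Kdm6a, which encodes a demethylase of histone H3, affects CD4+ T cells during experimental autoimmune encephalomyelitis (EAE), a mouse model of multiple sclerosis. Every mouse was a female C57BL/6 animal homozygous for a floxed Kdm6a allele. The 4 conditional knockout (cKO) libraries, numbered 2, 3, 7 and 12, came from mice that also had a copy of the CD4-Cre transgene, which acts wherever the Cd4 promoter is active during T cell development. The 3 wild-type (WT) libraries, numbered 10, 14 and 19, came from littermates with floxed alleles and no Cre, so presence of Cre and loss of Kdm6a cannot be told apart. Lymph node cells were taken at day 17 of EAE and kept for 18 hours with 25 µg/mL of myelin oligodendrocyte glycoprotein (MOG) peptide 35-55, and CD4+ cells were then sorted. The labels give neither ages nor whether each library is a separate mouse, so p-values measure the spread between libraries, which may be technical in part.

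Cells make cholesterol from acetyl-CoA through mevalonate, farnesyl diphosphate and squalene. When sterols in the endoplasmic reticulum are low, the escort protein Scap carries SREBP precursors to the Golgi, where they are cleaved and released to activate these genes. When sterols are plentiful, Insig proteins hold Scap back, and oxysterols activate LXR, which raises efflux genes such as Abca1 and Abcg1. In T cells, activation and proliferation draw on this SREBP-driven synthesis, and LXR signalling is known to restrain proliferation.

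Total counts ranged from 17910536 in cKO replicate 2 to 28697579 in WT replicate 14. Kdm6a itself stood at 96.3 to 104 CPM (read counts scaled to a common library size) in cKO and at 113 to 125 CPM in WT, which is a log2 difference of -0.24 ± 0.06 (SE) at an adjusted p = 0.0414. Gene-level counts do not resolve which exons were read. All 8 defining markers of CD4 T cells were detected and tested, with Cd4 at 986 to 1241 CPM. Replicate 2 of the cKO group stood apart. Gm42418 took 9.22% of its counts against 2.55% to 4.26% in the other libraries, and 9 B cell markers summed to 210 CPM there against 39.3 to 158 CPM elsewhere. The 13 monocyte and macrophage markers summed to 86.1 CPM in that library against 26.0 to 46.0 CPM in the other 6. Results that rest on it are given with and without it. Library values of Dhcr7, Sqle, Abca1 and Npc1 are given because of their values, which were seen first.

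Divided by exon length, Srebf2, Nr1h2, Srebf1 and Insig1 were the 4 most abundant of the 32 genes. Srebf2, which encodes the SREBP that chiefly drives cholesterol synthesis, stood at 74.0 ± 5.26 CPM per kb of exon (SD, n = 7). Nr1h2, which encodes the LXR isoform found in most cells, followed at 48.9 ± 3.08 and Srebf1 at 39.8 ± 1.42. These 3 levels were separated by more than their SDs. Below them, Insig1 had 21.8 ± 2.44, and the enzymes other than Idi1 lay between 3.02 (Hsd17b7) and 17.6 (Ebp) CPM per kb. From Ebp down to Hsd17b7, neighbours in the order overlapped within their SDs, except Acat2 at 5.90 ± 0.63 and Mvk at 4.65 ± 0.20. The lowest were Abca1 at 1.70 ± 0.56, Nr1h3 (the LXR isoform typical of macrophages and liver) at 0.48 ± 0.13 and Idi1 at 0.42 ± 0.10.

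**Figure D1:**
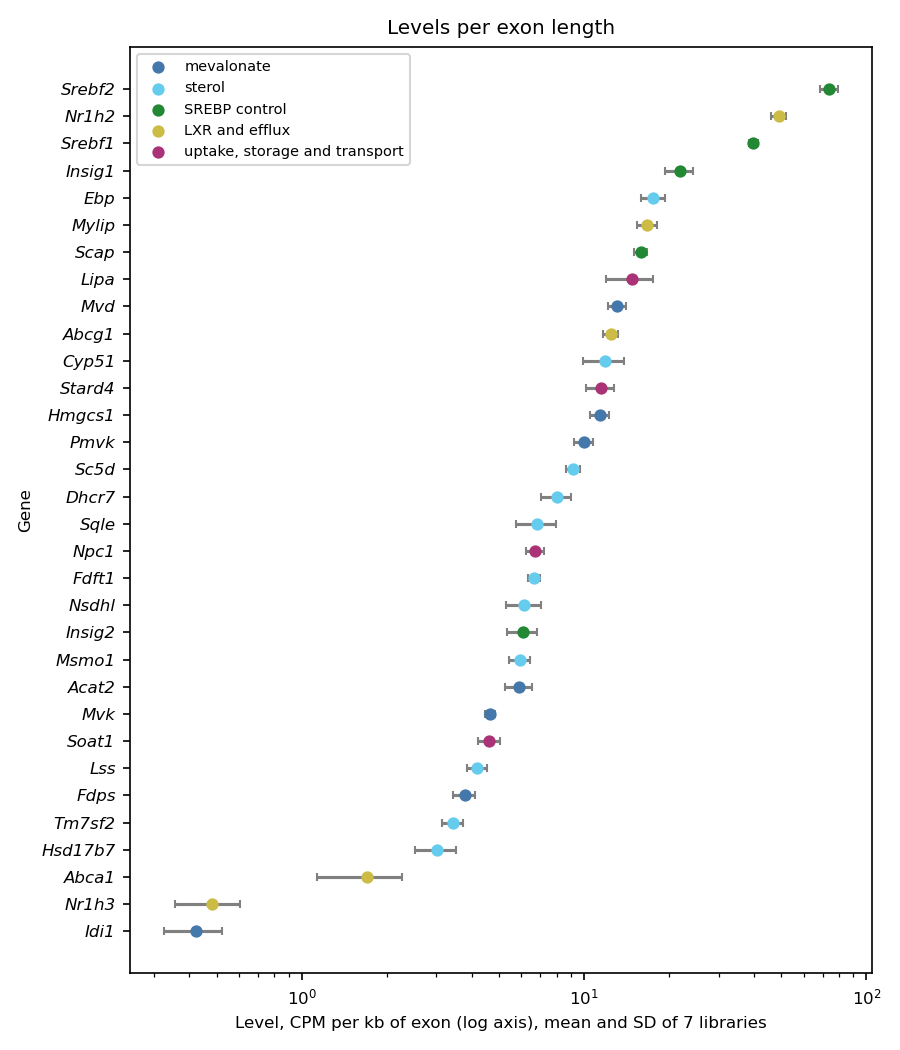
Mean level of each of the 32 genes in CPM per kb of exon on a log axis, over all 7 libraries, with bars of SD and colours for the role groups. Srebf2, Nr1h2 and Srebf1 lie at the top with 74.0, 48.9 and 39.8, and Nr1h3 and Idi1 at the bottom with 0.48 and 0.42.

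Across the comparison of cKO with WT, most cholesterol genes had small fold changes, and the member that passed the threshold was Lipa, which encodes the lysosomal acid lipase that frees cholesterol from imported cholesteryl esters. With edgeR's quasi-likelihood test and Benjamini-Hochberg adjustment over all tested genes, Lipa fell and no member rose. That is 1 of 32 members (3.12%), where 6.44% of all tested genes were called and 3.64% were called lower. The median log2 fold change of the members was -0.02, against 0.01 over all tested genes, and the median absolute value was 0.09 against 0.14. At an unadjusted p under 0.05 there were 5 members, Dhcr7 and Abca1 with higher and Srebf2, Lipa and Npc1 with lower means in cKO. That is 15.6% of the members, against 21.5% of all tested genes. The cKO and WT libraries did not overlap in 2 members, Lipa and Dhcr7, or 6.25%, against 21% of all tested genes.

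The libraries also bounded how far most members could have moved. In 28 of the 32 members the whole 95% interval of the fold change lay within 1.5-fold in either direction, as it did in 60.5% of all tested genes. The 4 others were Idi1, Nr1h3, Abca1 and Lipa. Idi1 and Nr1h3 were the members with the fewest reads, 239 and 200 over all 7 libraries. Interval width depends in part on reads, and neither these shares nor the medians above were matched for abundance.

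**Figure D2:**
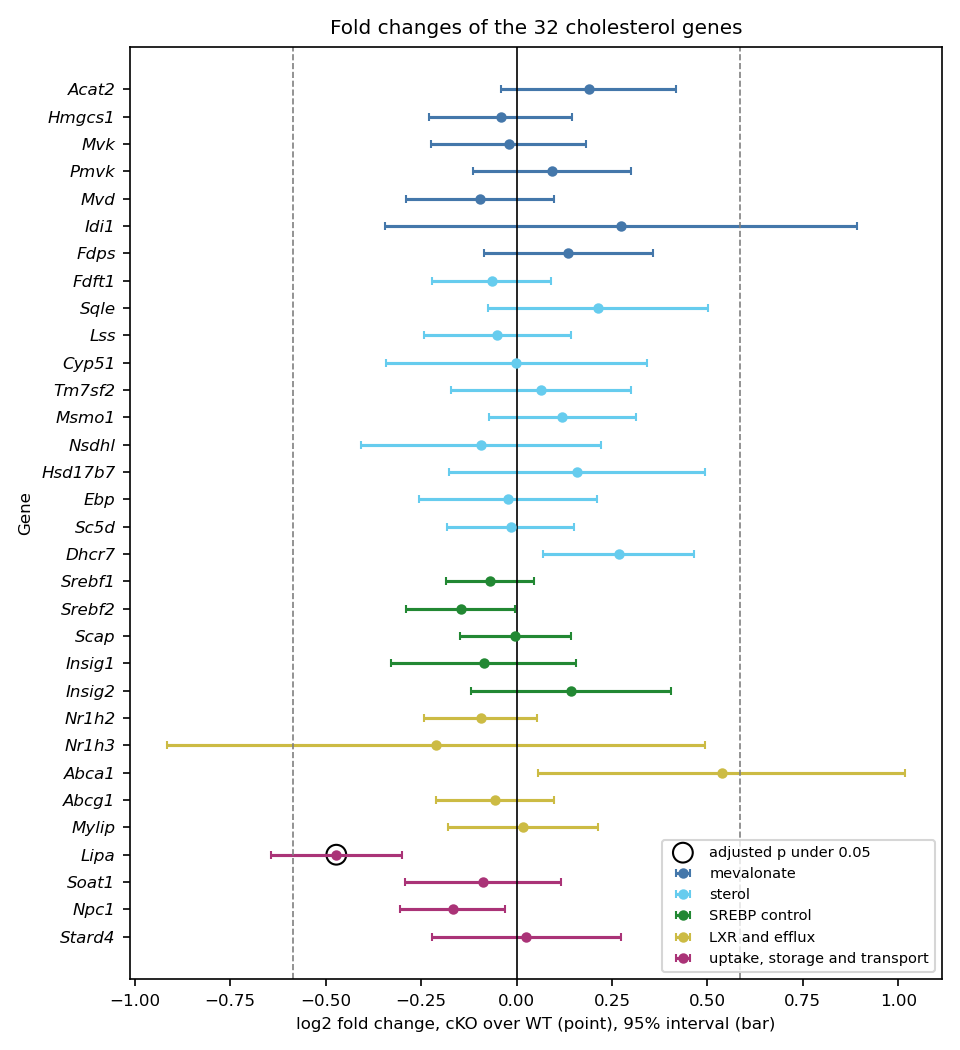
Log2 fold change of cKO over WT (points) with 95% intervals (bars) for the 32 genes, coloured by role group, with dashed lines at 1.5-fold and a ring around genes with an adjusted p under 0.05. Lipa alone is ringed, at -0.47, and the intervals of Idi1, Nr1h3, Abca1 and Lipa cross a dashed line.

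The 7 genes of the mevalonate part of the pathway, from acetyl-CoA to farnesyl diphosphate, had log2 fold changes between -0.10 and 0.27 and none was called. Mvd, the decarboxylase that yields isopentenyl diphosphate and the most abundant of the 7 per exon length, had 26.4, 21.8, 22.5 and 24.2 CPM in cKO replicates 2, 3, 7 and 12. It had 26.9, 25.0 and 24.1 CPM in WT replicates 10, 14 and 19. The groups overlapped, and the log2 difference was -0.10 ± 0.09 (SE, 95% interval -0.29 to 0.10, adjusted p = 0.583). Hmgcs1, which encodes the cytosolic synthase that condenses acetoacetyl-CoA with acetyl-CoA, averaged 51.5 ± 2.86 CPM (SD) over cKO libraries and 53.0 ± 5.79 over WT libraries. Its interval ran from -0.23 to 0.15 on the log2 scale.

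The kinases Mvk and Pmvk, which phosphorylate mevalonate in succession, had log2 fold changes of -0.02 and 0.09. Fdps, the farnesyl diphosphate synthase gene, had 0.14. Acat2, which encodes the cytosolic thiolase that makes acetoacetyl-CoA, had 15.9 ± 1.49 CPM in cKO against 13.9 ± 1.08 in WT (log2 0.19 ± 0.10, adjusted p = 0.335). Its close paralog Acat3 lies beside it on chromosome 17 with 47.2 CPM, so the share of reads given to each is uncertain. Idi1, the isopentenyl diphosphate isomerase gene, had 1.60 CPM in cKO and 1.32 in WT, too few reads for a narrow interval (-0.35 to 0.89).

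The 11 genes from squalene synthesis to cholesterol likewise included no call, and all 11 intervals lay within 1.5-fold. Ebp, a sterol isomerase gene and the most abundant of the 11 per exon length, had 42.6, 34.3, 38.3 and 46.3 CPM in the cKO libraries in the order above. Its WT values of 40.7, 38.5 and 43.7 CPM fell inside that range (log2 -0.02 ± 0.10 SE, adjusted p = 0.93). Fdft1, which encodes squalene synthase and commits farnesyl diphosphate to sterols, had a log2 fold change of -0.06, and Lss, which encodes the cyclase that forms lanosterol, had -0.05. Cyp51, the lanosterol demethylase gene, had a mean of 52.5 CPM in each group.

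Sqle encodes squalene epoxidase, a rate-limiting enzyme, with a log2 difference of 0.21 and an SE of 0.13 (adjusted p = 0.382). Its cKO values were 34.1, 36.7, 40.3 and 50.1 CPM and its WT values 38.4, 33.0 and 33.0 CPM, so the groups overlapped and cKO replicate 12 was highest. Genes of the demethylation, reduction and desaturation steps, Tm7sf2, Msmo1, Nsdhl, Hsd17b7 and Sc5d, had log2 fold changes between -0.09 and 0.16.

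Dhcr7, which encodes the reductase of the last step to cholesterol, came nearest to a call among the enzymes. It had 49.3, 49.1, 53.0 and 49.6 CPM in cKO replicates 2, 3, 7 and 12, and 42.7, 36.1 and 46.5 CPM in WT replicates 10, 14 and 19. Every cKO library was above every WT library, by a margin of less than the WT spread. The log2 fold change was 0.27 ± 0.09 (SE, 95% interval 0.07 to 0.46, adjusted p = 0.113). With limma voom and quality weights it passed the threshold (0.32, adjusted p = 0.0326), and over all alternatives the adjusted p ran from 0.0326 to 0.335.

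Summed over the 18 enzymes, the synthesis genes reached 527, 487, 513 and 574 CPM in cKO replicates 2, 3, 7 and 12 and 547, 486 and 495 CPM in WT replicates 10, 14 and 19. Averaged by group, the sums came to 525 ± 36.2 CPM for cKO and 509 ± 33.0 CPM for WT (SD), with a ratio of 1.03. Differences between libraries within a group were larger than that between the groups. Replicate 12 held the highest cKO level of 10 of the 18 enzymes and replicate 3 the lowest of 9. WT replicate 10 held the highest WT level of 11 of the 18, and WT replicate 14 the lowest of 10.

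**Figure D3:**
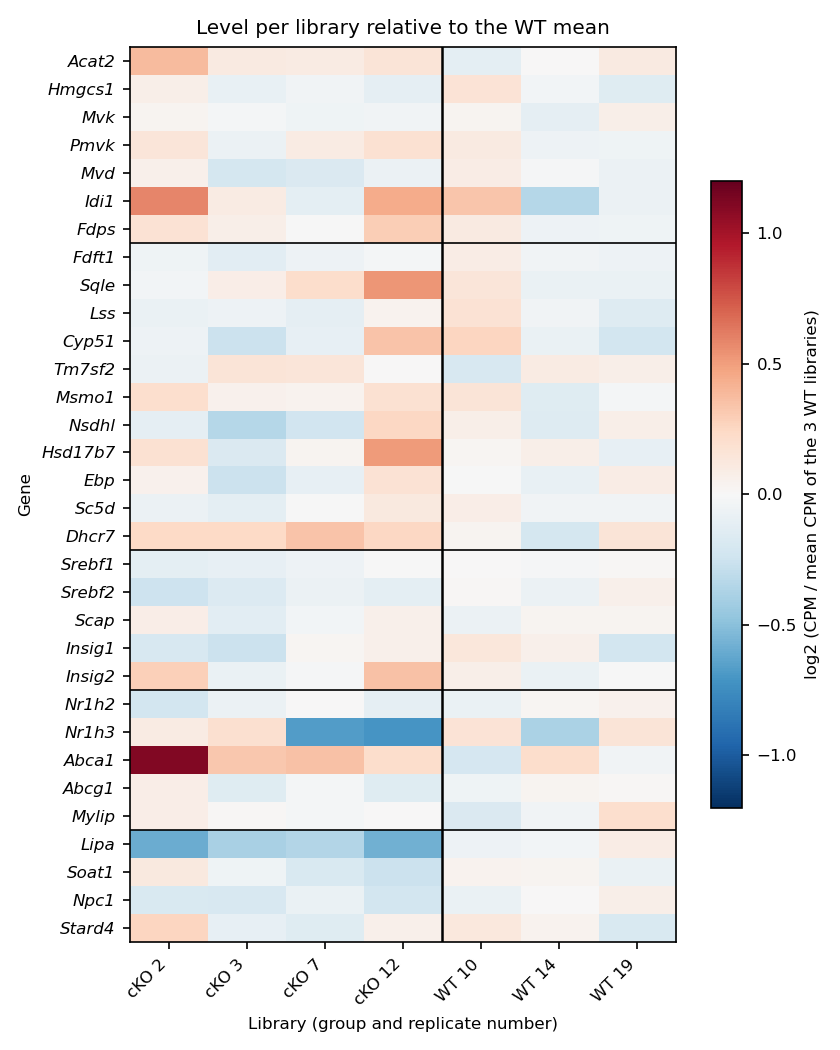
Log2 ratio of each library's CPM to the mean of the 3 WT libraries, for the 32 genes in rows and the 7 libraries in columns, with lines between role groups and between cKO and WT. Lipa is low in all 4 cKO libraries, Abca1 is highest in cKO replicate 2 with 30.0 CPM, and many enzymes are high in cKO replicate 12 and WT replicate 10.

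SREBPs bind short sterol regulatory elements, usually beside a CCAAT box bound by nuclear factor Y. Promoters from RefSeq on GRCm38.p6, from 250 bases before to 50 bases after the start, were matched for 26 members, all but Fdps, Fdft1, Sqle, Abcg1, Npc1 and Stard4. Some genes had several windows, and a gene was counted where any held a match. They were searched on both strands for the element-like letters TCACNCCA and for CCAAT, which can overlap where AT follows the element. CCAAT was present in 21 of the 26 members (80.8%) and in 14 of the 15 matched enzymes, against 41.1% of 27025 genes with a promoter. Those 27025 genes were not limited to tested genes, and the shares were not matched for abundance or number of windows. Dhcr7 was counted only through its window at chr7:143829964-143830263. TCACNCCA was present in 3 members, Hmgcs1, Msmo1 and Srebf2 (11.5%, against 4.97% of genes), and each of them held CCAAT as well.

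The promoters of these 3 members, whose transcripts did not pass the threshold, are shown with that of Lipa, the member that fell. Capitals mark TCACNCCA and CCAAT on either strand, CCAAT appearing as ATTGG on the other, and each sequence runs 5′ to 3′ along its gene's strand. Hmgcs1 is at chr13:119690101-119690400 on the plus strand, Msmo1 at chr8:64733529-64733828 on the minus strand, Srebf2 at chr15:82147019-82147318 on the plus strand and Lipa at chr19:34527425-34527724 on the minus strand.
Hmgcs1: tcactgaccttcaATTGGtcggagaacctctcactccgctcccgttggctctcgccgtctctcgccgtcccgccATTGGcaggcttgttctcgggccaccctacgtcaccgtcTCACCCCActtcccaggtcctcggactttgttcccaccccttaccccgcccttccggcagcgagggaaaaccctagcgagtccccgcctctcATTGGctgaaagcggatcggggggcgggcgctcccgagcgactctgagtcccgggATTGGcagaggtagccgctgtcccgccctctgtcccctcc
Msmo1: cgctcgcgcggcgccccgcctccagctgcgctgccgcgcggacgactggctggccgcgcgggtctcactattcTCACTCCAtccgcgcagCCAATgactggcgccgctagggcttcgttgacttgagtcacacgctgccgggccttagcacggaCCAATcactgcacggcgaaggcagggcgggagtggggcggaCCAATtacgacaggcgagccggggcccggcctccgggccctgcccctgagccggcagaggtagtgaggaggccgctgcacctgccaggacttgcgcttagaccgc
Srebf2: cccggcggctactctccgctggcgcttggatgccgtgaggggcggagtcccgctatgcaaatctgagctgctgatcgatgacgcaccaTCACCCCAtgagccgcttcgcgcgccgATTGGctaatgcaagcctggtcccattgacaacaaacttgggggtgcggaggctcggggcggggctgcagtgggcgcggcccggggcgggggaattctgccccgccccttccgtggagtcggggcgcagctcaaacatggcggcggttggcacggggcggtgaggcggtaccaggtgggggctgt
Lipa: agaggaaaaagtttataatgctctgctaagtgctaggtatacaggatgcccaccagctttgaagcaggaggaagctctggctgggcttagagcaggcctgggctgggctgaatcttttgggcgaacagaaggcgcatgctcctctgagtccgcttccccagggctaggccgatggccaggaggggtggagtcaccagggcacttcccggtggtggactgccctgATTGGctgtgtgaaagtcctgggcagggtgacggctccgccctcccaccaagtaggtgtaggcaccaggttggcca
Hmgcs1 held 1 element-like match and 4 CCAAT matches, Msmo1 held 1 and 3, and Srebf2 held 1 and 1. Lipa held 1 CCAAT match and no TCACNCCA. The matches describe letters in these windows only.

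Among the SREBP regulators no gene was called, and all 5 intervals lay within 1.5-fold. Srebf2 had 475, 502, 537 and 519 CPM in cKO replicates 2, 3, 7 and 12 and 567, 534 and 586 CPM in WT replicates 10, 14 and 19. Only cKO replicate 7 reached into the WT range. The Srebf2 log2 fold change was -0.15 ± 0.06 (SE, 95% interval -0.29 to -0.0036, adjusted p = 0.221), a mean 9.64% lower. Srebf1, whose product chiefly drives fatty acid synthesis, had 212, 215, 221 and 230 CPM in cKO and 231, 227 and 232 CPM in WT in the same order of replicates. Replicate 12 reached the WT range and the other cKO libraries lay below it (log2 -0.07 ± 0.05, adjusted p = 0.493).

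Scap stood at 118 ± 7.58 CPM in cKO and 119 ± 4.81 in WT (SD, log2 0.00 ± 0.06 SE). Insig1, itself an SREBP target, had 65.8 ± 7.18 and 69.8 ± 8.93 CPM (log2 -0.09, adjusted p = 0.707). Insig2, the isoform less dependent on SREBP, had 22.0 ± 3.23 and 19.9 ± 1.03 CPM (log2 0.14, adjusted p = 0.539). Summed over the 5 regulators, of which Srebf2 was the most abundant, levels were 897 to 971 CPM in cKO and 975 to 1019 CPM in WT. These sums did not overlap, at 971 against 975 CPM for the nearest libraries, with a ratio of cKO to WT means of 0.933. Each of the 5 genes overlapped between the groups on its own. Srebf2 held the largest part of the sums, with means of 508 CPM in cKO and 563 CPM in WT.

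In the LXR and efflux group no gene was called. Nr1h2 had 146, 162, 171 and 158 CPM in cKO replicates 2, 3, 7 and 12 and 161, 173 and 176 CPM in WT replicates 10, 14 and 19, with overlapping groups (log2 -0.09 ± 0.07 SE, adjusted p = 0.467). Nr1h3 had 0.81 to 1.5 CPM in cKO and 1.01 to 1.47 CPM in WT, and its interval of -0.92 to 0.49 left its direction unresolved at this depth. Abcg1, which exports cholesterol to lipoprotein particles, stood at 89.2 ± 6.72 CPM in cKO and 92.7 ± 3.10 in WT. Mylip, whose product marks lipoprotein receptors for degradation, stood at 54.3 ± 1.61 and 53.7 ± 7.20 CPM.

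Abca1, which encodes the transporter that loads cholesterol onto lipid-poor apolipoproteins, had the largest log2 fold change of any member and was not called. It had 30.0, 17.4, 17.7 and 16.1 CPM in cKO replicates 2, 3, 7 and 12, and 12.1, 16.1 and 13.5 CPM in WT replicates 10, 14 and 19. Replicates 2, 3 and 7 lay above all WT libraries, and replicate 12 lay just below WT replicate 14. The log2 fold change was 0.54 ± 0.21 (SE, 95% interval 0.06 to 1.02, adjusted p = 0.184). Without cKO replicate 2 it was 0.29 (adjusted p = 0.205), and it was 0.21 (adjusted p = 0.662) once the model held a covariate of B cell, monocyte, macrophage and dendritic cell markers.

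Some monocyte and macrophage markers were high in the library where Abca1 was highest. The 13 markers summed to 86.1 CPM in cKO replicate 2, to 26.0 to 46.0 CPM in the other cKO libraries and to 28.0 to 32.2 CPM in WT, and none of the 13 was at 0 in every library. Adgre1, which defines mouse macrophages, was at 14.4 CPM in cKO replicate 2 and at 0.12 to 2.56 CPM in the other 6, and Itgam was at 34.6 CPM against 0.85 to 7.20 CPM. Csf1r, also a macrophage marker, was at 18.0 CPM there and at 14.6 to 18.0 CPM in the others (log2 0.00 between the groups), Cd163 was at 0.10 to 0.28 CPM in WT and at most 0.06 CPM in cKO, and C1qa, C1qb and C1qc reached at most 0.58 CPM in all 7. Dendritic cell markers summed to 66.2 to 95.4 CPM in cKO and 55.8 to 72.0 CPM in WT, with Clec9a at 0 in every library. Their part in the Abca1 difference was not tested beyond these values.

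Lipa acts in lysosomal release of cholesterol. The gene (ENSMUSG00000024781, chromosome 19, 34492318 to 34527474 on the minus strand of mm10) had 79.2, 91.1, 93.8 and 80.3 CPM in cKO replicates 2, 3, 7 and 12. In WT replicates 10, 14 and 19 it had 115, 117 and 127 CPM. The highest cKO library was below the lowest WT library, and the means were 86.1 ± 7.45 and 120 ± 6.62 CPM (SD). Lipa's log2 fold change was -0.47 ± 0.08 (SE, 95% interval -0.64 to -0.30, adjusted p = 0.00691) and the level fell by 27.9%. It was called under all 17 alternatives, with log2 fold changes from -0.52 to -0.39. The alternative threshold of 0.1 reads the same fit, so no call at 0.05 could be lost there. In bulk samples fewer cells of a type and less RNA per cell cannot be told apart.

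Without cKO replicate 2, the library with the highest macrophage markers, the Lipa value was -0.44 (adjusted p = 0.00934), and with the marker covariate it was -0.45 (adjusted p = 0.0401). Summed natural killer cell and CD8 T cell markers did not overlap between the groups either, and were higher in cKO. The 6 natural killer cell markers summed to 96.5 to 104 CPM in cKO and 55.3 to 85.0 CPM in WT, with none at 0 in every library. Of the 6, Eomes, Klrb1c and Klre1 rose (adjusted p = 0.000653, 0.0031 and 0.000143), and these 3 did not overlap between the groups. The other 3 were not called and overlapped, with log2 fold changes of 0.01 for Ncr1, 0.05 for Prf1, the most abundant of the 6, and -0.52 for Gzma. Among the 3 that rose, Eomes was the most abundant, at 23.7 to 44.3 CPM in cKO and 3.85 to 6.62 CPM in WT. The CD8 T cell markers, Cd8a and Cd8b1, summed to 12.9 to 16.3 CPM in cKO and 9.12 to 11.5 CPM in WT, and neither was called. Cd8b1 had 12.6 to 13.5 CPM in cKO and 8.74 to 11.1 CPM in WT. Cd8a overlapped, at 0.28 to 2.78 CPM in cKO and 0.38 to 0.73 CPM in WT. Whether these markers stood for other cells, and any part of such cells in the Lipa difference, was not tested. No annotated gene overlaps Lipa.

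The other members of this group were not called. Npc1, the lysosomal membrane protein gene that exports freed cholesterol, had 71.3, 70.8, 76.9 and 69.9 CPM in the cKO libraries and 76.9, 81.6 and 85.0 CPM in WT. The ranges touched between cKO replicate 7 and WT replicate 10, and the log2 fold change was -0.17 ± 0.06 (SE, 95% interval -0.31 to -0.03, adjusted p = 0.149). Soat1, which re-esterifies cholesterol for storage, had 44.0 ± 5.03 CPM in cKO and 46.7 ± 2.19 in WT. Stard4, a cytosolic cholesterol carrier gene, had 64.7 ± 8.46 and 63.5 ± 6.90 CPM. The 4 genes of release, storage and transport together summed to 255 to 277 CPM in cKO and 309 to 312 CPM in WT, with Lipa holding the largest part of the difference.

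**Figure D4:**
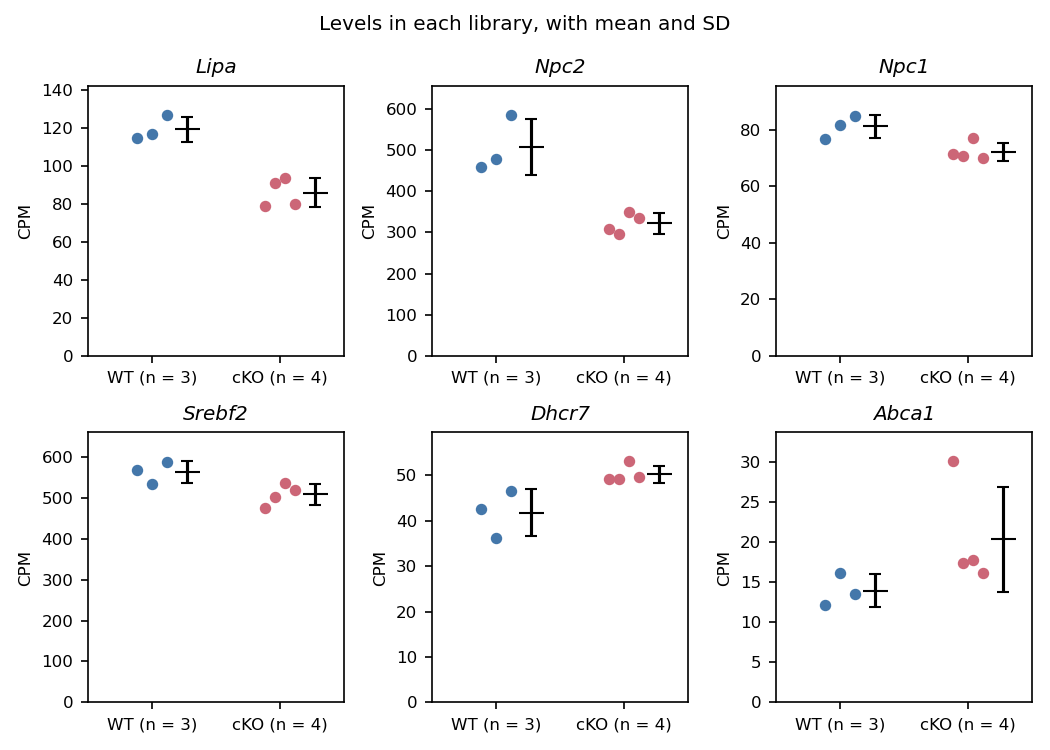
CPM in each library (points) with mean and SD (bars) for 6 genes, WT on the left and cKO on the right of each panel, each axis starting at 0. Lipa and Npc2 separate the groups, Dhcr7 separates them narrowly, and Npc1, Srebf2 and Abca1 overlap or touch.

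Genes beside these in sterol and lipid metabolism were read from 5 lists. Of 95 listed genes 94 were in the table and 88 were tested, of which 3 rose and 4 fell. That is 7.95% of the 88, against 6.44% of all tested genes, and the median log2 fold change was 0.01. By list, the calls were 1 higher and 1 lower among 16 other sterol and prenyl enzymes and 0 among 10 genes of SREBP processing. They were 1 and 1 among 17 fatty acid genes, 1 and 1 among 26 lipoprotein receptor and endosomal transport genes, and 0 and 1 among 19 LXR partners, targets and oxysterol genes. Over all 88, 28.4% had an unadjusted p under 0.05, against 21.5% of all tested genes. The groups did not overlap in 27.3% of the 88, against 21% of all tested genes. By list, the unadjusted share was 37.5% among other sterol and prenyl enzymes and 17.6% among fatty acid genes. It was 30.8% among lipoprotein receptor and endosomal transport genes and 31.6% in the LXR list. In the SREBP processing list it was 2 of the 10 genes (20%). DESeq2 called 2 of them and limma voom 1, where these tools called 10.2% and 10.8% of all tested genes. The most abundant genes of this list per exon length were not called under any alternative. These were Rnf145, a ubiquitin ligase gene, and Aup1, whose product acts in the degradation of endoplasmic reticulum proteins. They had log2 fold changes of -0.09 and -0.14.

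Npc2, which encodes the soluble lysosomal protein that hands cholesterol to Npc1, was called lower, as Lipa was. It had 307, 295, 349 and 336 CPM in cKO replicates 2, 3, 7 and 12 and 459, 478 and 585 CPM in WT replicates 10, 14 and 19. The groups were far apart relative to their spread, at a log2 difference of -0.66 with an SE of 0.09 (adjusted p = 0.00411), and Npc2 was called under all 17 alternatives. Smpdl3a, a secreted phosphodiesterase gene known as an LXR target in human macrophages, fell from 115 ± 4.84 to 82.2 ± 9.77 CPM (log2 -0.48 ± 0.09, adjusted p = 0.0145). Leaving out any WT library ended that call, with an adjusted p of 0.0688 without replicate 10, 0.0513 without 14 and 0.0641 without 19. Lamp1 and Lamp2, lysosomal membrane genes on the same lists chosen for mention after their values were seen, had log2 fold changes of -0.02 and 0.26, and neither was called. The groups overlapped in Lamp1. Lamp2 did not overlap, at 45.7 to 61.2 CPM in cKO and 40.4 to 43.9 CPM in WT (adjusted p = 0.169). The part of the natural killer and CD8 T cell markers given beside Lipa was not tested for Npc2 or the other called genes either.

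Vldlr, a lipoprotein receptor gene, rose 3.06-fold from a low level, with 5.78, 6.36, 5.86 and 2.79 CPM in cKO and 2.48, 1.63 and 0.98 CPM in WT (adjusted p = 0.03). The Vldlr call was lost without cKO replicate 3 (0.0705) or 7 (0.0615), without WT replicate 14 (0.134) or 19 (0.105), and with the marker covariate (0.109), at log2 fold changes from 1.21 to 1.58 in these fits.

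The remaining calls fell to enzymes around the pathway. Aacs, which activates acetoacetate for lipid synthesis, rose from 28.8 ± 2.15 to 39.3 ± 3.20 CPM (log2 0.45 ± 0.09 SE, adjusted p = 0.016). Fntb, the beta subunit gene of the farnesyltransferase that uses farnesyl diphosphate, fell from 47.8 ± 5.75 to 30.5 ± 3.51 CPM (log2 -0.65 ± 0.11, adjusted p = 0.00919) and was called under all 17 alternatives. Churc1 overlaps Fntb on the same strand with 17.2 CPM, so its share of reads is uncertain. Elovl6, a fatty acid elongase gene, fell from 114 ± 8.17 to 75.0 ± 13.2 CPM (log2 -0.60 ± 0.12, adjusted p = 0.0206). Me1, which encodes the cytosolic malic enzyme that supplies NADPH, rose 4.46-fold from 0.50 ± 0.25 to 2.27 ± 1.15 CPM (adjusted p = 0.0319).

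The calls of Aacs, Elovl6 and Me1 were lost without some libraries, while their log2 fold changes stayed at 0.38 to 0.49, -0.69 to -0.52 and 1.80 to 2.53 with each library left out in turn. Aacs did not pass when WT replicate 14 (adjusted p = 0.0886) or 19 (0.058) was left out. That of Elovl6 was lost without WT replicate 10 (0.0938), 14 (0.0794) or 19 (0.0598), and that of Me1 without cKO replicate 12 (0.0586) or WT replicate 10 (0.065), 14 (0.129) or 19 (0.118). With the marker covariate these 3 calls were lost as well (adjusted p = 0.0691, 0.0793 and 0.0997), at log2 fold changes of 0.42, -0.60 and 1.84. Without cKO replicates 2 and 7 together, an alternative chosen after seeing the data, the calls of Aacs, Me1 and Vldlr were lost (adjusted p = 0.0743, 0.0572 and 0.125).

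Counting limits touch some members. The sources used here do not state whether counting used strand, and 12 members overlap an annotated gene on the opposite strand, 5 of them a protein-coding gene in the table, such as Fdft1 with Ctsb (219 CPM). Reads of such pairs may have been exchanged, and none of the 12 was called. Tm7sf2 overlaps the protein-coding gene Vps51 (57.4 CPM) on the same strand, so its share of reads is uncertain.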

How the data were processed

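RNA was measured by stranded mRNA sequencing of 7 libraries of CD4+ T cells, 4 cKO and 3 WT, grouped by genotype label. The authors deposited whole-number read counts per gene for 39017 Ensembl genes in a single table. Per the submitters' processing notes, bcl2fastq 2.17 and build mm10 were used, and the sources used here give no aligner, counter, annotation version or strand setting. Symbols, coordinates and exon lengths came from GENCODE M21, which held 37607 of the identifiers.

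The deposited counts were tested with edgeR 4.0.16 (R 4.3.3): filterByExpr left 15968 genes, TMM factors scaled the libraries, and glmQLFit and glmQLFTest compared cKO with WT. A gene was called at a Benjamini-Hochberg adjusted p under 0.05 over all tested genes. CPM used effective library sizes, SEs came from the F statistic, and intervals are 95%. The fit was tested on simulated data, with 50 genes changed at each size. At an absolute log2 change of 0.5 it called 36% of them, at 1 60%, and at 2 and 3 98%. Of 160 genes called, 14 were false. Totals of 17910536 to 28697579 counts set the precision, and members with few reads have wide intervals. Library pairs of a group differed beyond sampling noise, so all were kept.

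The members and gene lists were chosen with earlier results of these data known, and no p-value was adjusted over a list alone. Some genes of the lists are not reported here and were left out of their counts. All members are named. Of the other lists, each called gene is named, or the 2 most abundant per exon length where none was called. In the list with no call, the genes called by DESeq2 or limma voom are named as well. Library values are given for called members, the SREBP and LXR genes and the most abundant member of each role.

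The 17 alternatives were DESeq2 size factors and upper-quartile factors in edgeR, DESeq2 1.42.0, limma 3.58.1 voom with quality weights, no filter, a filter of CPM of at least 1 in 3 libraries, 31 other-cell markers as a covariate, each library left out in turn, and 0.1 as the threshold. Leaving out Gm42418, and cKO replicates 2 and 7 together, were chosen after seeing the data. The threshold of 0.1 was read from the main fit, so it could add calls but not remove any.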

Additional observations from a re-analysis of the deposited data

Results flagged for a closer look

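Among 39 genes examined, the 4 cKO libraries held a value far from the other 3, by Dixon's 95% criterion, in 3. Chance marks about 1 in 20 groups in this way. Abca1 was at 30.03 CPM in cKO replicate 2 and at 16.1 to 17.75 CPM in the others. Dhcr7 was at 53.03 CPM in cKO replicate 7 against 49.14 to 49.58 CPM, and Vldlr at 2.794 CPM in cKO replicate 12 against 5.784 to 6.361 CPM.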

How the results depend on the processing

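Lipa was called under all 17 alternatives. Members called numbered 1 in every alternative but limma voom, which called 2, adding Dhcr7. Leaving out each library in turn kept the count at 1. Of members not called, 11 changed sign under at least 1 alternative, all with log2 fold changes of at most 0.09 in size, and such sign changes are not counted as reversals. Over all tested genes, 1028 were called, against 1625 with DESeq2, 1729 with limma voom, 572 with the marker covariate and 1644 at a threshold of 0.1. Without each library the count ran from 419 to 1065, with 497, 419 and 466 without WT replicates 10, 14 and 19. The 7 calls among the other lipid genes became 12 with limma voom, 11 at a threshold of 0.1, and 2 to 7 without each library, with 4, 2 and 2 without WT replicates 10, 14 and 19. The cause of these shifts was not tested, and the fits without a library also rest on fewer libraries. No paired analysis was possible because the labels give no litter, batch or pairing. The replicate numbers of cKO (2, 3, 7 and 12) and WT (10, 14 and 19) do not tell which libraries came from the same litter. Depth limits Idi1 and Nr1h3, with 239 and 200 counts in all.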

Other observations

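A pair of lipid genes that did not pass the threshold, chosen after their values were seen, varied strongly between libraries. Lrp1, a large endocytic lipoprotein receptor gene, had 170, 80.8, 67.0 and 268 CPM in cKO replicates 2, 3, 7 and 12 and 53.4, 74.5 and 39.2 CPM in WT replicates 10, 14 and 19 (log2 1.39 ± 0.46 SE, adjusted p = 0.112). It was called with no filter and without cKO replicate 7, and in no other alternative. Scd1, a fatty acid desaturase gene, had 79.0, 30.0, 62.2 and 17.2 CPM in cKO and 37.1, 31.2 and 16.4 CPM in WT (adjusted p = 0.422). The B cell markers summed to 210, 90.8, 158 and 39.3 CPM in the same cKO libraries and to 88.7, 64.9 and 40.1 CPM in WT, and their part in the Scd1 values was not tested.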
